A study of Homo sapiens with 9 samples.

Results

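The genes described here encode 9 human proteins that bind copper, either as signalling kinases and scaffolds or as enzymes that hold copper at their active site. They were chosen by name and not by a threshold on their values, but with earlier results of these data known. The signalling side holds MAP2K1 and MAP2K2 (the kinases MEK1 and MEK2), ULK1, ULK2, PDPK1 and MEMO1, and the enzyme side PAM, AOC2 and AOC3. These genes are 9 of the 59453 gene names counted, and all 9 were among the 16556 names with enough counts to be tested. Their mRNA was measured by RNA-Seq in MDA-MB-231, an established human cell line of triple-negative breast cancer (TNBC), in 3 groups of 3 libraries: untreated cells, cells given the copper chelator TEPA for 8 h and cells given TEPA for 24 h. The sample labels give 8 mM TEPA, whereas the RNA sequencing methods give a lower concentration. The study gives more than one chemical name for TEPA, so it is called by its abbreviation here. All cells were grown in serum-containing medium in flasks with no genetic change named, and a single untreated group served both times. A difference between 24 h and 8 h therefore cannot be told apart from an effect of time in culture. The labels give no time for the untreated cells, which cannot match both TEPA times. The same limit thus bears on the comparisons with untreated cells. Nothing in the labels says that replicates came from separate cultures, so the p-values measure the spread between these libraries, which may be technical.

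Copper enters cells through the transporter CTR1 (gene SLC31A1) and is handed on by small chaperones. In the RAS-RAF-MEK-ERK cascade, MEK1 and MEK2 bind copper, and the bound metal promotes their phosphorylation of ERK1 and ERK2. ULK1 and ULK2 start autophagy and also bind copper, as does PDPK1, the kinase that activates AKT, and MEMO1 is a metal-binding protein needed for cell movement driven by the receptor ERBB2. PAM uses copper in the secretory pathway to amidate the ends of peptide hormones, and AOC2 and AOC3 are copper amine oxidases that turn primary amines into aldehydes. These are effects of copper on the proteins. The counts below report their mRNA and say nothing of their metal content or activity.

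The libraries held 34633755 to 49342659 counts. In a principal component analysis the 3 groups lay apart, with 41.3% of the variance on the first component and 32.6% on the second. Mitochondrially encoded genes took 3.61 to 4.02% of counts at 8 h, 1.79 to 2.91% in untreated cells and 1.89 to 2.02% at 24 h. VIM, CD44, EGFR and KRT18, which this line is known to express, were present in every library, ESR1 reached at most 9 counts and PGR had 0 counts in every library. CDH1 held 17 to 33 counts in untreated libraries, 10 to 17 at 8 h and 119 to 144 at 24 h. EPCAM held 36 to 71 counts, and both were low beside VIM. ERBB2 held 1911 to 3532 counts per library, well above these. Of the markers of other cell types, PTPRC (leukocytes) had 0 to 5 counts and ACTA2 (smooth muscle and fibroblasts) 7 to 24 counts, PECAM1 (endothelium) had 34 to 364 counts and COL1A1 (fibroblasts) 518 to 1311 counts. Expression is given as CPM, counts per 1000000 of the library total after scaling by trimmed means of M-values (TMM), as mean ± SD of 3 libraries. A gene was called changed at a Benjamini-Hochberg adjusted p under 0.05 in edgeR's quasi-likelihood test, fitted on the 16556 genes together. Intervals are 95% intervals of the log2 fold change.

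Promoter sequence was matched by symbol to a RefSeq table on GRCh38.p14, which held 7 of the 9 genes. AOC3 and MEMO1 had no entry. The 250 bases before the start of the main transcript are shown for AOC2, the member with the smallest p-value, and for PAM, the copper enzyme that went the other way at 8 h. AOC2 lies at chr17:42844330-42844579 on the plus strand and PAM at chr5:102755055-102755304 on the plus strand. Capitals mark the letters TATAAA, which begin 28 bases before the start of AOC2.
AOC2: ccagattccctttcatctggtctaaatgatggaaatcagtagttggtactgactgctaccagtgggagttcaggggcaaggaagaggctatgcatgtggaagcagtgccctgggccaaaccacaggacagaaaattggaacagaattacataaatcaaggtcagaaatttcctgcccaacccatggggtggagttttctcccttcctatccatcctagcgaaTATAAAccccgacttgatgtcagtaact
PAM: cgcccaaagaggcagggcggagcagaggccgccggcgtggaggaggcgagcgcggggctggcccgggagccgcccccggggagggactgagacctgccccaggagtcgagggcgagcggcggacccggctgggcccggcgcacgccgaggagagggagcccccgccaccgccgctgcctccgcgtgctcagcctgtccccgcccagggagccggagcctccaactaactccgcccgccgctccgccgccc
The AOC2 stretch was 46.8% G and C, against 79.6% in PAM and a median of 58.0% over 35116 promoters. Among the main starts of the 7 genes, only AOC2 held TATAAA on the gene strand, a match found in 6.8% of all promoters. The stretches of MAP2K1, MAP2K2, ULK1, ULK2 and PDPK1 were 71.2 to 81.6% G and C. Metal response element cores were searched as TGCACNC and TGCGCNC on both strands, and 24.83% of all promoters held at least one of them. At the main starts, PDPK1 alone of the 7 held such a core (TGCGCNC, 21 bases before the start). At other listed starts, PAM and MAP2K1 held such cores and MAP2K2 did not. The AP-1 motif TGANTCA (6.57% of all promoters) and the E-box CACGTG (6.34%), also searched on both strands, matched none of the 7. A match is a run of letters and not a measured binding site.

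Before any comparison, the levels of the 9 genes spanned a wide range. Per kilobase of exon in untreated cells, MAP2K2 was highest at 38.5 ± 0.908 CPM, followed by PAM at 17.0 ± 1.57, MAP2K1 at 14.0 ± 0.153, PDPK1 at 6.22 ± 0.253 and ULK1 at 5.26 ± 0.606. Lower levels per kilobase were found for AOC2 at 2.21 ± 0.457, MEMO1 at 1.23 ± 0.0680, AOC3 at 0.373 ± 0.0423 and ULK2 at 0.0294 ± 0.00532. All neighbours in this order lay apart in the untreated libraries, though PDPK1 and ULK1 only narrowly. The exon length is that of all annotated exons of a gene merged, not of the transcripts expressed. The order, and ratios per kilobase between genes, depend on these lengths. The order changed with treatment: AOC2 reached 5.62 ± 0.403 CPM per kilobase at 8 h, overlapping ULK1 at 5.58 ± 0.437, and stayed above MEMO1 at both times.

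**Figure D1:**
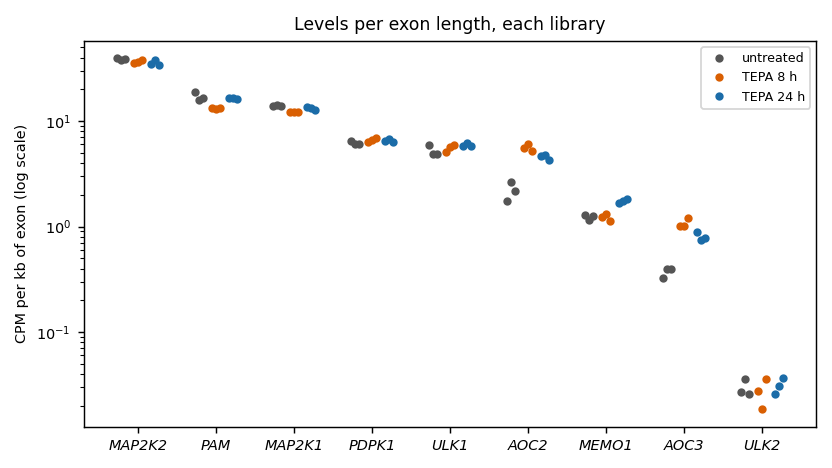
CPM per kilobase of exon on a log scale for the 9 genes, ordered by their untreated mean, with 1 point per library and 3 libraries per group. MAP2K2 is highest near 38.5 in untreated cells and ULK2 lowest near 0.0294, and the AOC2 and AOC3 points of both TEPA groups lie above the untreated ones.

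Of the 9 genes, 4 were called at 8 h against untreated cells, with AOC2 and AOC3 higher and MAP2K1 and PAM lower. Over all genes tested, 49.6% were called in this comparison, 25.2% higher and 24.5% lower. At 24 h against untreated cells 4 were called, with MEMO1, AOC2 and AOC3 higher and MAP2K2 lower, beside 52.5% of all genes, 25.7% higher and 26.8% lower. When 24 h was compared directly with 8 h, 5 were called, with MAP2K1, MEMO1 and PAM higher and AOC2 and AOC3 lower, beside 54.8% of all genes, 26.0% higher and 28.8% lower. The share of these genes that was called was thus near that of all genes. In size, the increases of AOC3 and AOC2 at 8 h ranked 379 and 567 by absolute log2 fold change among the 16556 genes, whereas MAP2K1 and PAM ranked 9034 and 5307. The median absolute log2 fold change of all genes was 0.22 at 8 h and 0.24 at 24 h, and the signed median was 0.00 at both times. Both comparisons with untreated cells use the same 3 untreated libraries.

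**Figure D2:**
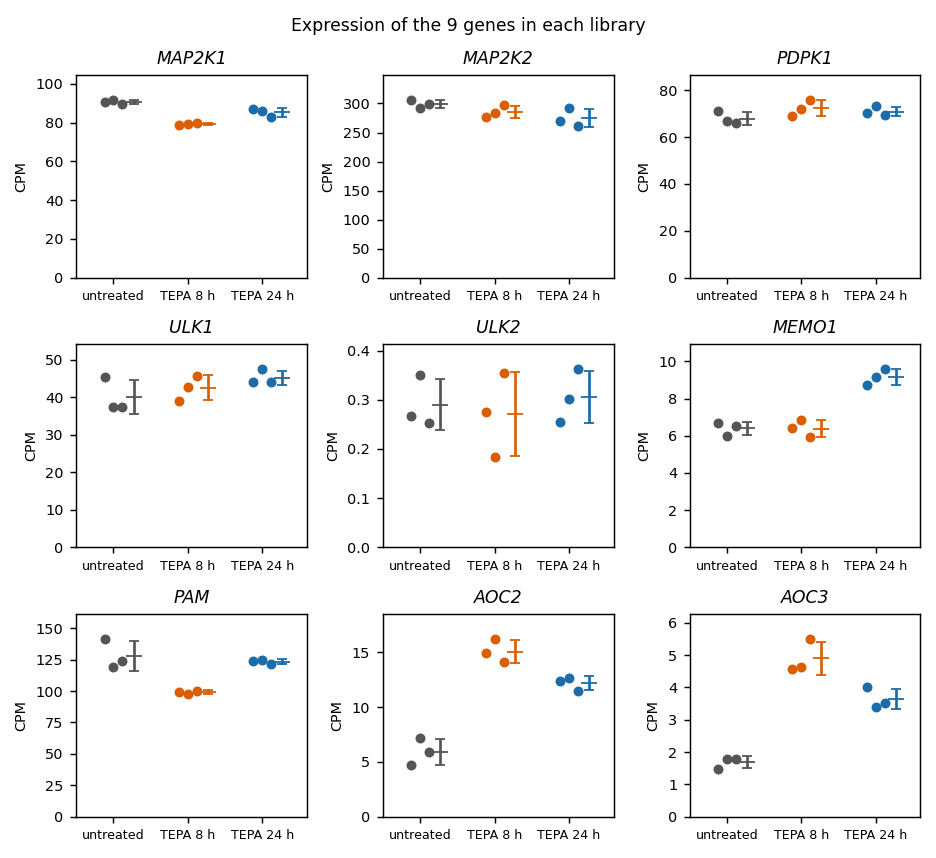
CPM of each gene in every library, with axes starting at 0, 1 point per library and mean ± SD of 3 libraries beside the points. AOC2 and AOC3 lie higher in all 6 TEPA libraries than in the 3 untreated ones, MEMO1 only at 24 h, and PAM and MAP2K1 are lowest at 8 h.

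MAP2K1 encodes MEK1, which phosphorylates ERK1 and ERK2. Its mRNA stood at 90.7, 91.7 and 89.8 CPM in untreated replicates 1 to 3, at 78.7, 79.2 and 79.7 CPM at 8 h and at 87.1, 86.2 and 82.8 CPM at 24 h. Every 8 h library was below every library of the other groups, and the 24 h libraries were also below the untreated ones. The decrease at 8 h was small, with log2 fold change -0.20 (SE 0.04, adjusted p = 3.6e-04), and at 24 h the value was -0.09 (SE 0.04, adjusted p = 0.054), which was not called. From 8 h to 24 h the level rose by 0.11 on the log2 scale (SE 0.04, adjusted p = 0.019), but not when TEPA 24 h replicate 1 was left out (0.09, adjusted p = 0.091). The higher mitochondrial share of the 8 h libraries moved with this decrease, and a link between them was not tested. With mitochondrial genes left out of the library totals the value was -0.20. TMM scaling largely offsets such a change of totals, so this fit cannot decide the question. The antisense neighbour SNAPC5 overlaps 3.34% of MAP2K1 exon bases, and strand was used in the counting.

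MAP2K2 encodes MEK2, the close relative of MEK1. Untreated libraries read 306, 292 and 299 CPM, the 8 h libraries 276, 283 and 297 CPM and the 24 h libraries 271, 292 and 262 CPM. The groups overlapped in each comparison with untreated cells. The log2 fold change was -0.07 at 8 h (interval -0.16 to 0.03, adjusted p = 0.21) and -0.12 at 24 h (SE 0.04, adjusted p = 0.029). The call at 24 h did not hold without untreated replicate 1 (adjusted p = 0.053), untreated replicate 3 (0.066), TEPA 24 h replicate 1 (0.10) or TEPA 24 h replicate 3 (0.13), nor with upper-quartile scaling (0.075). Per kilobase, MAP2K2 exceeded MAP2K1 by 2.74 ± 0.0838 times in untreated cells and 2.68 ± 0.128 times at 24 h. The ratio was higher in every 8 h library (2.92, 2.97 and 3.10) than in every untreated one (2.65 to 2.81).

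The kinases and adaptors around the MEKs moved in both directions. Of 13 genes of the cascade around the MEKs, from RAS to ERK, 12 were tested, and KSR2 had 0 counts in every library. At 8 h 6 fell and 1 rose, and their median log2 fold change was -0.09, and at 24 h 5 fell and 2 rose, with the median again at -0.09. Thus 7 of 12 were called at each time, near the share of all genes (49.6% and 52.5%). By direction, 24.5% of all genes fell and 25.2% rose at 8 h, and 26.8% fell and 25.7% rose at 24 h. Without TEPA 24 h replicate 1 or 3, 1 gene rose at 24 h. KSR1, a scaffold that holds RAF, MEK and ERK together, fell by 0.41 on the log2 scale at 8 h and by 0.43 at 24 h (adjusted p = 1.7e-04 and 7.5e-05). ARAF, a kinase upstream of the MEKs, rose by 0.29 at 8 h (adjusted p = 4.7e-05) and by 0.16 at 24 h (adjusted p = 0.0060). MAPK3, encoding ERK1, fell by 0.28 at 8 h (adjusted p = 0.0018) and read 0.13 above untreated on that scale at 24 h (adjusted p = 0.093). LAMTOR3, an adaptor for MEK1, rose by 0.20 at 24 h, a call that was lost without untreated replicate 1 or TEPA 24 h replicate 1 or 3.

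Among 14 output and feedback genes of ERK, 11 fell and 2 rose at 8 h (median log2 fold change -0.42), and 10 fell and 1 rose at 24 h (median -0.34), where 24.5% and 26.8% of all genes fell. Without untreated replicate 1, 2 rose at 24 h. DUSP5, a phosphatase that acts on ERK in the nucleus, went from 61.3 ± 3.94 CPM to 34.4 ± 1.22 CPM after 8 h, then 32.4 ± 1.56 CPM after 24 h. DUSP4, a related phosphatase, fell by 0.85 on the log2 scale at 8 h (adjusted p = 9.1e-09). ETV4, a transcription factor, fell by 0.86 at 24 h (adjusted p = 5.3e-10). The genes that went against this direction also encode growth-response factors: FOSL1 rose by 0.35 and CCND1 by 0.33 at 8 h, and EGR1 rose by 0.99 at 24 h (adjusted p = 4.6e-04, 9.7e-06 and 9.1e-05). FOSL1 then fell by 0.46 at 24 h (adjusted p = 3.3e-05).

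ULK1 encodes the kinase that begins autophagosome formation. It was measured at 45.4, 37.5 and 37.3 CPM without TEPA, 39.0, 42.9 and 45.7 CPM by 8 h and 44.1, 47.4 and 44.1 CPM after 24 h. Untreated replicate 1 lay above the other two untreated libraries and inside the range of both TEPA groups. The log2 fold change was 0.09 at 8 h (interval -0.07 to 0.24, adjusted p = 0.35) and 0.18 at 24 h (interval 0.02 to 0.33, adjusted p = 0.053), and neither was called. Without untreated replicate 1, ULK1 was called higher at both times, by 0.18 at 8 h (adjusted p = 0.020) and by 0.27 at 24 h (adjusted p = 9.6e-04), and the value at 24 h was also called by DESeq2 (adjusted p = 0.037).

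ULK2, the second autophagy kinase, was near the limit of detection. The libraries held 10, 16 and 10 counts when untreated, 11, 7 and 13 after 8 h of TEPA and 13 in each of the 3 libraries after 24 h. Summed over each group, that is 36, 31 and 39 counts, or 0.294, 0.270 and 0.300 CPM, with exact Poisson 95% intervals of 0.206 to 0.406, 0.183 to 0.383 and 0.213 to 0.410 CPM that cover counting error only. The log2 fold change had an interval of -0.89 to 0.65 at 8 h and -0.70 to 0.78 at 24 h, so a change of less than about this size was not detectable at this depth.

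Of 10 genes of the ULK complex and of the lipid kinase complex that follows it, 6 fell and 0 rose at 8 h (median log2 fold change -0.27), and 3 fell and 3 rose at 24 h (median -0.03). The totals of 6 called lie near the shares of all genes called, 49.6% and 52.5%. By direction, 24.5% of all genes fell and 25.2% rose at 8 h, and 26.8% fell and 25.7% rose at 24 h. At 24 h 1 gene rose without untreated replicate 3 or without TEPA 24 h replicate 1. ATG14, a subunit of the lipid kinase complex and among those that rose at 24 h (0.16, adjusted p = 0.025), was not called without untreated replicate 2 or 3 or any 1 of the TEPA 24 h replicates, nor with no filter on low counts (0.10). AMBRA1, a regulator that links both complexes, fell by 0.41 at 8 h (adjusted p = 9.4e-06) and by 0.42 at 24 h (adjusted p = 6.0e-06). NRBF2, a subunit of the lipid kinase complex, fell by 0.32 at 8 h (adjusted p = 1.1e-04). ATG101, a subunit of the ULK complex, fell by 0.39 at 24 h (adjusted p = 2.7e-04). ATG13, the subunit that ULK1 phosphorylates, had 97.2 ± 4.73 CPM without TEPA, 78.6 ± 2.57 CPM by 8 h and 112 ± 5.59 CPM after 24 h, a fall by 0.31 followed by a value 0.21 above untreated (adjusted p = 6.8e-05 and 0.0012). Among 7 other kinases of the MAP2K and ULK families, 1 fell and 2 rose at 8 h, and 3 fell and 3 rose at 24 h. For these the shares of all genes are those given above. ULK3 rose by 0.47 and MAP2K7, which activates JNK, by 0.42 at 8 h (adjusted p = 2.5e-06 and 6.1e-07). MAP2K6, which activates p38, fell by 0.70 at 8 h (adjusted p = 7.4e-04), and ULK4 fell by 0.50 at 24 h (adjusted p = 0.0059).

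PDPK1 activates AKT and a set of related kinases at their activation loop. The libraries read 71.0, 66.7 and 65.9 CPM without TEPA, 69.0, 72.1 and 75.9 CPM by 8 h and 70.2, 73.1 and 69.4 CPM after 24 h, and the groups overlapped. The log2 fold change was 0.09 at 8 h (interval -0.01 to 0.19, adjusted p = 0.11) and 0.06 at 24 h (interval -0.03 to 0.16, adjusted p = 0.26). Leaving out untreated replicate 1 gave a call at 8 h (0.12, adjusted p = 0.038). Reads that match both PDPK1 and its near-identical copy PDPK2P are left out of both by default in the counting tool. PDPK2P held 1 to 9 counts per library, which does not bound the reads lost from PDPK1. The PDPK1 level is therefore uncertain to an unknown extent. Of 17 substrates and lipid regulators of PDPK1, 4 rose and 3 fell at 8 h (median log2 fold change 0.06), and 5 rose and 4 fell at 24 h (median 0.09). The 7 and 9 called are near the shares of all genes, 49.6% and 52.5%, and 3 rose at 24 h without untreated replicate 3, TEPA 8 h replicate 3 or TEPA 24 h replicate 1. SGK1, a substrate that controls ion transport, rose by 0.55 at 8 h and fell by 0.45 at 24 h (adjusted p = 3.4e-05 and 2.6e-04). PIK3CA, the catalytic subunit that makes the lipid PDPK1 binds, fell by 0.33 and 0.38 (adjusted p = 8.8e-05 and 2.0e-05). RPS6KB1, a substrate that promotes protein synthesis, rose by 0.28 at 24 h (adjusted p = 2.0e-04).

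MEMO1 was called at 24 h and not at 8 h. It stood at 6.67, 6.00 and 6.54 CPM in untreated cells and at 6.42, 6.82 and 5.90 CPM at 8 h, against 8.75, 9.17 and 9.57 CPM at 24 h. The untreated and 8 h libraries overlapped, and every 24 h library lay above all of them. At 24 h the level was 1.43-fold that of untreated cells (log2 fold change 0.52, SE 0.08, adjusted p = 9.7e-05), and the direct difference between 24 h and 8 h was also 0.52 (SE 0.09, adjusted p = 9.3e-05). At 8 h the interval ran from -0.19 to 0.19. On the same strand, DPY30 shares 26.5% of the MEMO1 exon bases in GENCODE v44 and fell by 0.46 at 8 h (adjusted p = 3.1e-05) and by 0.39 at 24 h (adjusted p = 1.2e-04), so reads of the shared bases cannot be assigned by position alone. The processed copy MEMO1P1 held 17 to 48 counts per library beside 217 to 446 counts of MEMO1.

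MEMO1 acts downstream of ERBB2, a receptor that TNBC cells by definition do not overexpress. Of 7 genes for partners of MEMO1 in ERBB2-driven movement, 4 fell and 1 rose at 8 h (median log2 fold change -0.10), and 2 fell and 2 rose at 24 h (median -0.04). Over all genes 49.6% were called at 8 h, 24.5% lower, and 52.5% at 24 h, 26.8% lower. Without TEPA 8 h replicate 1, 2 fell at 8 h. ERBB2 itself had 81.4 ± 5.11 CPM without TEPA, 73.2 ± 3.24 CPM by 8 h and 53.0 ± 0.969 CPM after 24 h, a fall by 0.15 at 8 h (adjusted p = 0.017) and by 0.62 at 24 h (adjusted p = 5.2e-08). The 8 h call was lost without untreated replicate 1 (adjusted p = 0.069) and without TEPA 8 h replicate 1 (0.074). PLCG1, a phospholipase, rose by 0.46 at 8 h (adjusted p = 4.8e-08) and by 0.21 at 24 h (adjusted p = 1.0e-04), GSK3B rose by 0.20 at 24 h (adjusted p = 6.0e-04), and RHOA, a GTPase of the actin cytoskeleton, fell by 0.13 and 0.15 (adjusted p = 0.0057 and 0.0025).

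**Figure D3:**
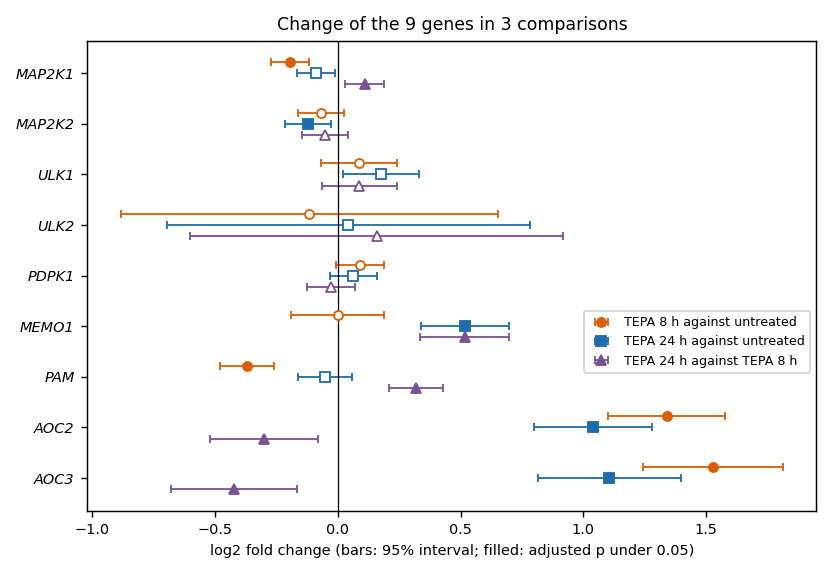
Log2 fold changes of the 9 genes in 3 comparisons, with 95% intervals and filled symbols at an adjusted p under 0.05. AOC2 and AOC3 lie above 1 at both times against untreated cells, MEMO1 is called only where 24 h is compared, and the intervals of ULK2 are the widest.

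PAM fell at 8 h and stood near the untreated level at 24 h. The libraries read 141, 119 and 124 CPM without TEPA, 99.2, 97.5 and 100.4 CPM by 8 h and 124, 125 and 122 CPM after 24 h. All 8 h libraries lay below all others, and the 24 h libraries fell within the untreated range. At 8 h the level was 0.774 of the untreated one (log2 fold change -0.37, SE 0.05, adjusted p = 2.6e-05). With mitochondrial genes left out of the library totals it was also -0.37, but TMM scaling keeps that fit close to the main one. At 24 h the log2 fold change was -0.05 (interval -0.16 to 0.06, adjusted p = 0.41). The rise from 8 h to 24 h was 0.32 (SE 0.05, adjusted p = 8.5e-05). Untreated replicate 1 had the highest level, and without it the 8 h value was -0.30 and still called (adjusted p = 5.2e-06).

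The genes that make and process peptide hormones beside PAM were in part silent in this line. Of 12, 7 were tested, with PCSK2, CHGA and CHGB at 0 counts in every library. At 8 h 3 rose and 2 fell (median log2 fold change -0.08), and at 24 h 1 rose and 1 fell (median -0.01). Over all genes tested, 49.6% and 52.5% were called at these times. Without untreated replicate 1, 3 rose and 2 fell at 24 h. PCSK7 and FURIN, widely expressed convertases, rose by 0.58 and 0.21 at 8 h (adjusted p = 9.6e-08 and 4.4e-04). PCSK5, another convertase, fell by 0.60 at 8 h (adjusted p = 6.0e-04) and by 0.43 at 24 h (adjusted p = 0.0053). CPE, the carboxypeptidase that trims peptides before amidation, went from 14.6 ± 4.30 to 9.77 ± 0.441 CPM at 8 h (adjusted p = 0.0049) and was at 16.7 ± 1.48 CPM at 24 h (adjusted p = 0.25), a course in which, as for PAM, the level at 8 h was the lowest.

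AOC2 and AOC3 were the members with the largest changes, and both were higher at both times. AOC2, known from the retina, had 176, 326 and 232 counts when untreated, 596, 620 and 517 after 8 h of TEPA and 633, 547 and 414 after 24 h, or 4.69, 7.14 and 5.88 CPM, then 14.9, 16.2 and 14.1 CPM, then 12.4, 12.7 and 11.5 CPM. Each TEPA library lay above each untreated one, and each 8 h library above each 24 h one. AOC2 rose 2.53-fold at 8 h (log2 fold change 1.34, SE 0.11, adjusted p = 1.5e-07) and stood 2.05-fold above untreated cells at 24 h (1.04, SE 0.11, adjusted p = 1.5e-06).

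AOC3, also called vascular adhesion protein 1 and known from endothelium, smooth muscle and fat, was scarcer. It had 55, 82 and 71 counts when untreated, 183, 177 and 202 after 8 h of TEPA and 204, 147 and 126 after 24 h, or 1.47, 1.79 and 1.80 CPM, then 4.57, 4.63 and 5.50 CPM, then 4.00, 3.41 and 3.50 CPM. The 3 groups did not overlap. The increase was 2.89-fold at 8 h (log2 fold change 1.53, SE 0.13, adjusted p = 2.5e-07) and 2.15-fold at 24 h (1.11, SE 0.14, adjusted p = 6.0e-06). Of the markers of other cell types, PECAM1 of endothelium moved the other way at 8 h, from 3.59 ± 0.563 to 1.06 ± 0.201 CPM, and was higher at 24 h at 8.13 ± 0.928 CPM. ACTA2 was at 0.432 ± 0.0940, 0.423 ± 0.207 and 0.319 ± 0.108 CPM, PTPRC had 0 to 5 counts, and COL1A1 rose 2.37-fold at 8 h and 1.32-fold at 24 h. No marker of fat cells was looked at, and the part of these genes in the AOC3 result was not tested.

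Between the times, both amine oxidases declined. From 8 h to 24 h AOC2 fell by 0.30 on the log2 scale (SE 0.10, adjusted p = 0.021) and AOC3 by 0.42 (SE 0.12, adjusted p = 0.0072). These calls were lost without single libraries: AOC2 without TEPA 8 h replicate 2 (adjusted p = 0.11) or TEPA 24 h replicate 3 (0.074), and AOC3 without TEPA 8 h replicate 3 (0.0503). The comparisons with untreated cells kept their calls without any 1 library, with AOC2 at 1.20 or more and AOC3 at 1.43 or more at 8 h on the log2 scale.

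The pair lies side by side on chromosome 17, with AOC2 at 42844580 to 42850707 and AOC3 at 42851184 to 42858130 on the plus strand of hg38, 476 bases apart. PSME3, which encodes a proteasome activator, ends 819 bases before AOC2 on the same strand. PSME3 differed by 0.06 on the log2 scale at 8 h (adjusted p = 0.22), and it fell by 0.28 at 24 h (adjusted p = 3.9e-05). Per 1000 PSME3 counts there were 16.8, 23.4 and 19.4 AOC2 counts in untreated cells, 47.9, 52.8 and 45.5 at 8 h and 52.1, 49.5 and 48.5 at 24 h. This ratio was higher in every TEPA library than in every untreated one. Per kilobase, AOC2 exceeded AOC3 by 5.88 ± 0.726 times in untreated cells, 5.25 ± 0.827 times at 8 h and 5.69 ± 0.537 times at 24 h, and the groups overlapped. AOC2 and AOC3 are similar in sequence and the stated featureCounts settings name no option to count reads that map to several places or overlap several genes, which the tool leaves out by default. AOC4P, a pseudogene of the family, held 0 to 3 counts per library.

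**Figure D4:**
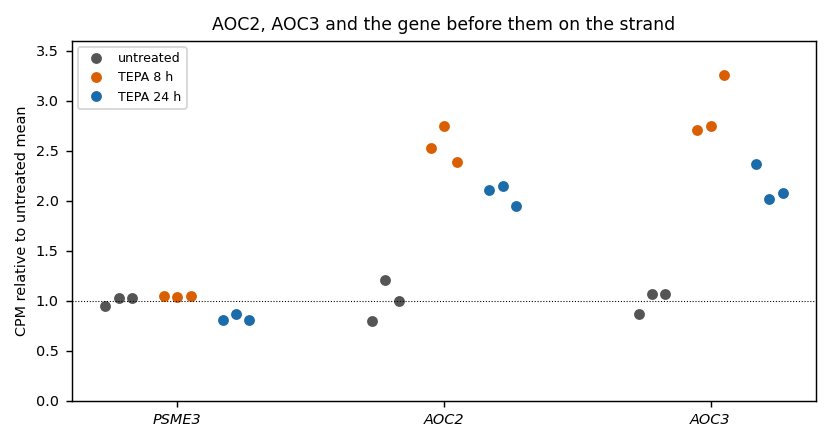
CPM of PSME3, AOC2 and AOC3 divided by the untreated mean of each gene, 1 point per library, axis from 0. All TEPA points of AOC2 and AOC3 lie above the untreated points, while PSME3 at 24 h lies below them.

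Most other copper enzymes tested were lower at 8 h, unlike AOC2 and AOC3. The third amine oxidase of the family, AOC1, had 0 counts in every library. Of 14 other copper enzymes 8 were tested, and at 8 h 6 fell and 0 rose (median log2 fold change -0.46), while at 24 h 3 fell and 2 rose (median -0.02). Those that fell at 8 h were mostly lysyl oxidases (LOX, LOXL1, LOXL2 and LOXL4), with MOXD1 and SOD1. LOXL3 of that family read 0.33 above untreated on the log2 scale at 8 h (adjusted p = 0.056). Of all genes, 24.5% fell and 25.2% rose at 8 h, and 26.8% fell and 25.7% rose at 24 h. LOXL1, a lysyl oxidase that crosslinks elastin, went from 8.12 ± 0.979 CPM to 3.15 ± 0.0546 CPM after 8 h, then 1.53 ± 0.0879 CPM after 24 h (adjusted p = 1.1e-07 and 3.8e-10). LOX, which crosslinks collagen, fell by 0.78 at 8 h (adjusted p = 8.8e-05) and by 0.75 at 24 h (adjusted p = 9.8e-05). LOXL4 fell by 0.76 at 8 h and stood 0.70 above untreated cells at 24 h (adjusted p = 1.5e-05 and 8.7e-06). LOXL3 was called higher at 24 h (0.34, adjusted p = 0.044), a call lost under DESeq2 (adjusted p = 0.076), with the replicate number as a block (0.063), with no filter (0.061) and with only the groups compared (0.058). It was also lost without untreated replicate 2 (0.17) or 3 (0.11), TEPA 8 h replicate 1 (0.054) or 2 (0.0504), or TEPA 24 h replicate 2 (0.14) or 3 (0.082), so that 1 copper enzyme of this list rose at 24 h in those fits. Without untreated replicate 1 or TEPA 8 h replicate 3, 1 rose at 8 h. MOXD1, a monooxygenase related to PAM, fell by 0.36 and 0.64 (adjusted p = 0.0053 and 4.6e-05).

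The genes of copper supply, with the ascorbate transporter SLC23A2 (ascorbate is the reductant that PAM needs), moved in both directions. Of 7 tested, 3 rose and 1 fell at 8 h (median log2 fold change 0.02), and 2 rose and 4 fell at 24 h (median -0.12). Of all genes, 49.6% were called at 8 h, 24.5% lower, and 52.5% at 24 h, 26.8% lower. SLC23A2 is counted among these, higher by 0.14 at 8 h (adjusted p = 0.012) and lower at 24 h (-0.16, adjusted p = 0.0047). SLC31A1, the importer CTR1, fell by 0.14 at 8 h (adjusted p = 0.0052) and by 0.13 at 24 h (adjusted p = 0.010). SLC31A2, its relative in internal membranes, rose by 0.24 at 8 h (adjusted p = 0.0052) and by 0.56 at 24 h (adjusted p = 1.8e-06). CCS, the chaperone of SOD1, rose by 0.25 at 8 h (adjusted p = 0.0062). ATP7A, the pump that loads secretory copper enzymes such as PAM, rose by 0.42 at 24 h (adjusted p = 2.7e-05), and its relative ATP7B fell by 0.24 (adjusted p = 0.0093). Of 6 other signalling proteins known to bind copper, 2 fell and 1 rose at 8 h (median -0.03), and 2 fell and 0 rose at 24 h (median -0.09). The shares of all genes called are those given above. The one that rose at 8 h, PDE3B, was not called without untreated replicate 1 or 3 or TEPA 8 h replicate 1 or 3, and 1 rose at 24 h without TEPA 8 h replicate 1 or TEPA 24 h replicate 2. UBE2D4, a ubiquitin-conjugating enzyme, fell by 0.40 and 0.68 (adjusted p = 0.0027 and 2.8e-05), and its relative UBE2D1 fell by 0.38 at 8 h (adjusted p = 0.0023).

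Metallothioneins, small proteins that store zinc and copper and whose genes respond to metal, were the list with the lowest median. Of 8 genes 3 were tested, and all 3 fell at both times, and at 24 h their median log2 fold change was -1.84. Of all genes, 24.5% fell at 8 h and 26.8% at 24 h. MT1E went from 26.7 ± 2.24 CPM to 10.9 ± 0.217 CPM after 8 h, then 5.09 ± 0.0134 CPM after 24 h (adjusted p = 1.9e-09 and 3.7e-12). MT2A fell by 1.60 and MT1X by 1.84 at 24 h (adjusted p = 9.7e-10 and 6.9e-09). These genes are near-identical in sequence, so their single values are uncertain.

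**Figure D5:**
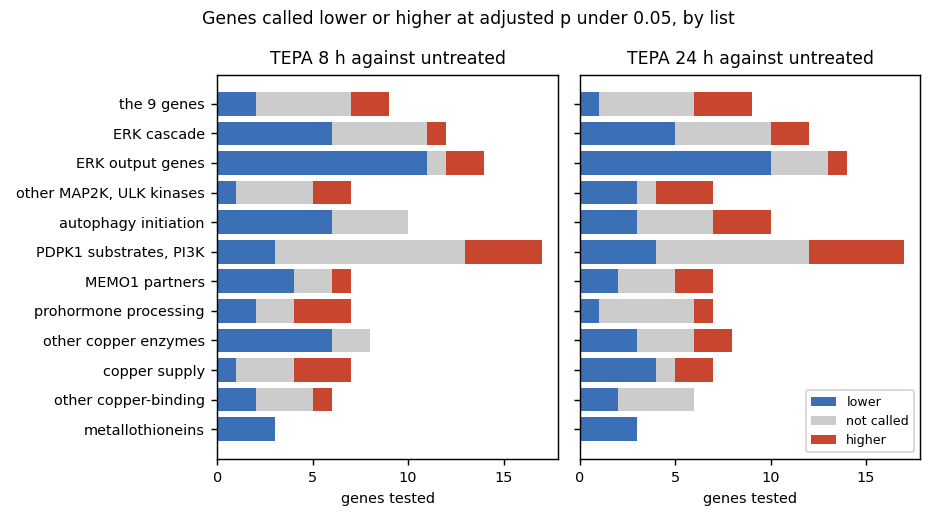
Numbers of genes called lower, not called and called higher in each list, for TEPA 8 h and 24 h against untreated cells, over the genes tested. The ERK output genes have 11 of 14 called lower at 8 h, the autophagy initiation genes 6 of 10, and the metallothioneins 3 of 3. Of all genes tested, 24.5% were called lower at 8 h.

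To place the time courses of the 3 members with the smallest p-values, the genes with the most similar course over the 9 libraries were sought among 11919 tested genes with a mean of at least 100 counts, by Pearson correlation of log2 CPM. Since the libraries fall into 3 groups, these values describe the order of the groups and carry no p. For AOC2 they were ALPK2 (r = 0.994), TJP1 (0.992) and DDX46 (0.992), and for AOC3 EMSY (0.995), ZNF331 (0.990) and PIDD1 (0.990). In size these differed: ALPK2 showed 1.17 after 8 h and 0.82 after 24 h as log2 fold changes, and TJP1 0.22 and 0.18. For PAM they were ACSF2 (0.995), B4GALT1 (0.993) and MAP3K5 (0.991), with log2 fold changes at 8 h of -0.84, -0.40 and -0.68.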

How the data were processed

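Libraries of MDA-MB-231 cells were made by the study from 3 replicates each of untreated cells and of cells given TEPA for 8 h or 24 h. Per the study's methods and the submitters' processing notes, the authors ran FastQC, mapped read pairs to hg38 (HISAT2) and obtained exon totals per gene name from featureCounts, using strand. The deposited values are raw counts without normalization, 1 column per library, and 0 columns were left out.

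Genes passing filterByExpr of edgeR 4.0.16 in R 4.3.3 (minimum count 10) numbered 16556 of 59453. After TMM scaling, all 9 libraries entered one quasi-likelihood model, p-values were adjusted by Benjamini-Hochberg, and a call was an adjusted p under 0.05. Each standard error is the absolute log2 fold change over the root of F. Totals were 34633755 to 49342659 counts, and the biological coefficient of variation came to 0.0481. A permutation test of a single value, 3 libraries against 3, cannot go below 0.1. The procedure was tested on simulated data for 8 h against untreated cells. Planted changes of 1.25-fold were recovered in 52% of 50 genes, of 1.5-fold in 74% and of 2-fold in 88%. Small changes can thus be missed, and 12 of 15785 unchanged genes were called. Exon lengths (all annotated exons of a gene merged) and positions are from GENCODE v44, not the annotation the study counted on. Promoters are from RefSeq.

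The 9 genes and the gene lists were chosen with earlier results of these data known. Named are all 9 genes, their near copies and overlapping genes, up to 2 called genes per direction, list and time with a mean of at least 100 counts, further list genes by their role, and the 3 genes most alike to each of 3 members. Some genes that meet these conditions do not appear in the text. Alternatives were other scalings, DESeq2 1.42.0, other filters, a log2 limit of 0.5, a fit of only the groups compared, a block for the replicate number, mitochondrial genes left out of totals, and leaving out each library. Western blots, imaging and animal experiments were not analysed here.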

Additional observations from a re-analysis of the deposited data

Results flagged for a closer look

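In 5 of the 9 genes the level differed between the TEPA 8 h and TEPA 24 h libraries, by their direct comparison in edgeR's quasi-likelihood test. Without untreated cells for each time, duration of TEPA and time in culture cannot be told apart here. The comparisons with untreated cells share this limit where the times do not match. From 8 h to 24 h the log2 difference was 0.52 for MEMO1 (adjusted p = 9.3e-05), 0.32 for PAM (adjusted p = 8.5e-05) and 0.11 for MAP2K1 (adjusted p = 0.019). It was -0.30 for AOC2 (adjusted p = 0.021) and -0.42 for AOC3 (adjusted p = 0.0072). The calls of MAP2K1, AOC2 and AOC3 were each lost without 1 or more single libraries (adjusted p = 0.091 for MAP2K1, 0.11 and 0.074 for AOC2, 0.0503 for AOC3).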

How the results depend on the processing

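All calls of members against untreated cells at 8 h held with RLE or upper-quartile scaling, DESeq2, either other filter, only the groups compared and mitochondrial genes left out of totals. The last of these could hardly differ, since TMM scaling largely offsets a change of totals. With a log2 limit of 0.5, members called were 2 at 8 h, 3 at 24 h and 1 between the times, and all genes called were 2943, 3095 and 3505. Leaving out each library in turn gave 4 to 6, 3 to 5 and 4 to 5 members called and 7138 to 8363, 7517 to 8738 and 8060 to 9643 genes called. ULK1 at 24 h was called with RLE scaling (adjusted p = 0.047), upper-quartile scaling (0.026), DESeq2 (0.037), no filter (0.0077) and 10 counts in every library (0.042). MEMO1 at 8 h turned to 0.0133 with upper-quartile scaling and to 0.0019 with 10 counts in every library. Signs turned when single libraries were left out for MEMO1 at 8 h (-0.0561 to 0.0452), ULK2 at 8 h (-0.35 to 0.0921), at 24 h (-0.0791 to 0.21) and between the times (-0.0497 to 0.39), PAM at 24 h (-0.10 to 0.0226) and PDPK1 between the times (-0.0566 to 0.0126), none of them called. The causes were not tested. ULK2 had no value with 10 counts in every library. Same-numbered replicates did not deviate together (correlations -0.25 to 0.18), and the fit with the replicate number as a block called 7779, 8355 and 8758 genes and 4, 4 and 5 members. Depth limits ULK2 most, at 7 to 16 counts per library.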
